A study of Mus musculus and Canis lupus familiaris and Equus caballus with 9 samples.

Results

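The 9 mouse genes for the subunits of AMPA and kainate receptors, Gria1 to Gria4 and Grik1 to Grik5, were examined for peaks of NRSF binding. They were taken by gene symbol from the 21887 protein-coding genes that RefSeq places on the chromosomes of the peak list (GRCm38.p6, the build called mm10 elsewhere), and all 9 were found. Peaks were assigned by their midpoints, which had to fall within the annotated gene span or at most 10 kb beyond either end. Otherwise the closest peak on its chromosome was taken. By this rule 5 of the 9 genes had a peak, compared with 7.49% of all protein-coding genes.

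NRSF, also called REST, was immunoprecipitated with a monoclonal antibody from RAW264.7 cells, a BALB/c mouse macrophage line at passages 13 to 15. Chromatin was fixed with 1% formaldehyde and sheared to fragments of 200 to 300 bp. There were 2 immunoprecipitated samples and 1 input DNA sample, all from unmodified cells of this line with no treatment named in the labels. The authors deposited 1 list for both immunoprecipitated samples, with 2357 peaks that are each 400 bp wide. The list holds positions only, so there is no height, no read depth and no value per replicate, and no replicate error can be given. The sources do not say if positions start at 0 or 1, so distances are uncertain by 1 base. The list holds no expression values, so the cell type could not be checked by its markers, and a peak says nothing about whether a gene was expressed.

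AMPA and kainate receptors are tetrameric cation channels opened by glutamate. AMPA receptors carry most fast excitatory transmission in the brain, while kainate receptors act on both sides of the synapse and modulate release and excitability. NRSF represses neuronal genes in other tissues and binds DNA through its zinc fingers, which recognise an extended element named RE1 or NRSE. Gria2 encodes GluA2, the subunit that makes AMPA receptors nearly impermeable to calcium once its transcript has been edited. It is a known NRSF target with an RE1 in its promoter.

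Sequence was available for windows at annotated transcription starts, from 250 bases before to 50 bases after the start. RefSeq windows (GRCm38.p6) were matched for 6 of the 9 genes: Gria2, Gria4, Grik2, Grik3, Grik4 and Grik5. The Gria2 window is shown because a peak lies on it, and it is the 1 window of the 6 that overlaps a peak. It lies at chr3:80802786-80803085 on the minus strand and is printed 5′ to 3′ in the direction of the gene. Capitals mark the 15 letters of its best RE1 match, which reads on the opposite strand and includes 1 mismatch and 2 free letters.

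Gria2 promoter: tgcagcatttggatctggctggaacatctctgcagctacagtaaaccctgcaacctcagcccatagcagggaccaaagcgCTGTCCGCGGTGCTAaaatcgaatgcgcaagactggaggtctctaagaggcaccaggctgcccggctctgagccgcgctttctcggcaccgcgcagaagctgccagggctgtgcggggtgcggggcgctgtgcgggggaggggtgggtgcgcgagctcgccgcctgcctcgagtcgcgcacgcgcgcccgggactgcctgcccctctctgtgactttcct

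The RE1 form searched was the canonical arrangement of CAGCACC, 2 free letters and GGACAG, which together hold 13 fixed letters, on both strands. The best match in each of the 6 windows is printed below on the strand on which it matched, so that the Gria2 match can be set against the others. Capitals mark letters identical to the fixed letters, and lower case marks mismatches and the 2 free positions. Where several sites in a window tied, the first found was kept, and ties were not counted.

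Gria2 best match: tAGCACCgcGGACAG

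Gria4 best match: CAGCcCCgaGGtgAt

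Grik2 best match: CAGCAgCggGGAaAG

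Grik3 best match: CgGCAgCcgGGgCAG

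Grik4 best match: CcGCcCggcGGgCAG

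Grik5 best match: CctCAtCcaGGgCAG

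The Gria2 match kept 12 of the 13 fixed letters. Its only mismatch was C1T, with positions counted from 1 at the 5′ end of the searched form and the searched letter given first. It lay 156 to 170 bases before the annotated start, at chr3:80802991-80803005, and its centre was 7 bp from the midpoint of the Gria2 peak. Of all 32841 promoter windows searched, 61 (0.186%) held a match with at most 1 mismatch. The Grik2 window held a match with 2 mismatches, C6G and C13A, 105 to 119 bases before the start, a quality found in 632 windows (1.92%, at most 2 mismatches). Its centre lay 3181 bp from the closest peak midpoint. The Grik3 window had 3 mismatches at best, and 4889 windows (14.9%) had at most 3. The Gria4, Grik4 and Grik5 windows had 4, a level that 62.0% of all windows reach. A match describes letters and is not a shown binding site, and the sequence under the other peaks was not used here.

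Across all genes, 69 promoter windows held a peak midpoint, and the Gria2 window is one of them. Of these, 19 (27.5%) held a match with at most 1 mismatch, compared with 0.186% of all windows. The 7-letter left part, CAGCACC, stood in 42.0% of the windows with a midpoint and in 7.14% of all windows. For the 6-letter right part, GGACAG, the shares were 68.1% and 22.2%. Gria2 held the right part without a mismatch and the left part only with C1T. In the 19 windows with both a midpoint and such a match, the match centre lay a median of 6 bp from the midpoint, and within 50 bp in all 19. These counts describe the list, since the windows were taken for their peaks, and no test was made on them.

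**Figure D1:**
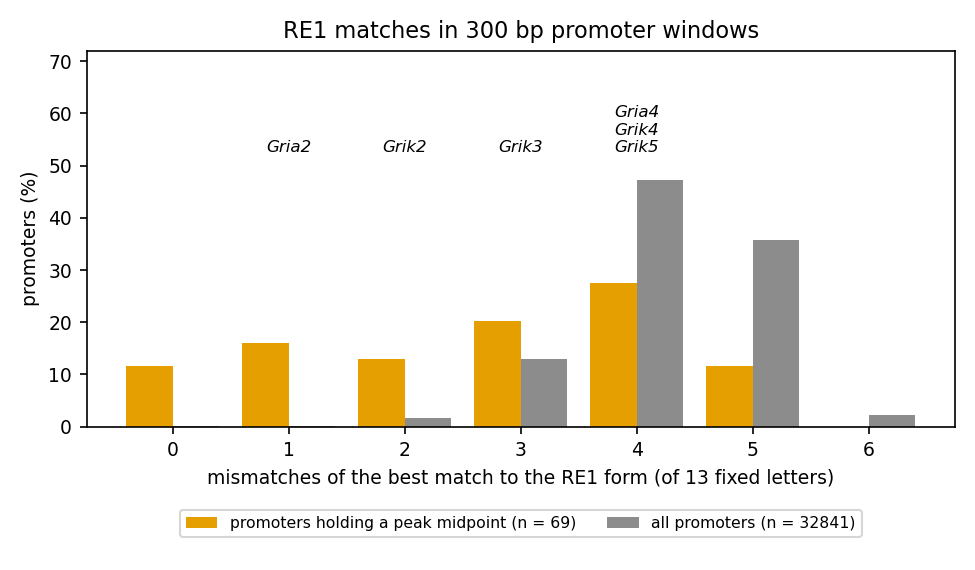
Share of promoter windows (y axis, percent) by the number of mismatches in the best match to the RE1 form (x axis), for 69 windows that hold a peak midpoint and for all 32841. Names above the bars place the 6 receptor genes: Gria2 stands at 1 mismatch, Grik2 at 2, Grik3 at 3 and the other 3 at 4.

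Among the AMPA receptor genes 1 of 4 had a peak, and that gene was Gria2. The Gria2 peak lay on chromosome 3 at 80802805 to 80803205 (mm10). Its midpoint was 170 bp upstream of the annotated start of the promoter table and 1222 bp inside the upper end of the gene span, which reaches further upstream than that start. The 300 bp window shared 281 bases with the peak. Of the 17492 protein-coding genes with a start in the table, 98 (0.56%) had a midpoint within 250 bp of a start, Gria2 among them. The closest other peak was 1610 kb away, and the closest other gene of any kind was Glrb, the glycine receptor beta subunit, at 40.6 kb.

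The other 3 AMPA receptor genes had no peak by the rule and none close to it. Gria1, which encodes GluA1, the subunit moved to synapses in long-term potentiation, occupies 57011571 to 57330244 on chromosome 11. Its closest peak lay 104 kb above the upper end of the span, at 57434155 to 57434555. For 73.9% of all protein-coding genes the closest peak was farther away. Gria4, which encodes GluA4, abundant in fast-spiking interneurons and in cerebellum, had its closest peak on chromosome 9 at 4138805 to 4139205, 279 kb below the lower end. That peak was 657 kb from the annotated Gria4 start, since the gene runs on the minus strand. Of all protein-coding genes, 51.7% lay farther from a peak than Gria4.

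Gria3, which encodes GluA3 and is X-linked, stood farthest from any peak of the 9 genes. Its closest peak was 6195 kb above its upper end, at 47873515 to 47873915 and inside Smarca1. Of all protein-coding genes 1.11% were farther from a peak, and of the 966 on chromosome X 14.2% were. Chromosome X held 55 peaks, and 2.38% of the protein-coding genes there met the rule. The median distance from a gene span to the closest peak was 1404 kb on X, compared with 298 kb over all protein-coding genes. On the chromosomes of the other receptor genes it ran from 202 kb on chromosome 11 to 483 kb on chromosome 3. Copy number and mappability of X were not examined, and their part in the Gria3 distance was not tested.

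Among the kainate receptor genes 4 of 5 had a peak, with 5 peaks in all. Grik1, Grik2 and Grik3 encode GluK1 to GluK3, the low-affinity subunits that can form channels alone, and 2 of these 3 genes had a peak. Grik4 and Grik5 encode GluK4 and GluK5, the high-affinity subunits that need a partner from the first group, and both had a peak. That of Grik5 lay outside its span. The shares of all protein-coding genes in the same length classes add up to 0.742 genes for the first group and 0.386 for the second. The groups were not tested against each other. The positions of the 5 kainate peaks relative to the genes differed widely.

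The Grik2 peak was the closest to a start among the kainate genes. It lay on chromosome 10 at 49785485 to 49785885, with its midpoint 3069 bp downstream of the annotated start and 4476 bp inside the upper end of a span of 696 kb. Within 5 kb of a start, 471 of the 17492 genes (2.69%) had a midpoint. The closest other protein-coding gene, Ascc3, was 807 kb away, and the closest other peak was 4239 kb away. Grik2 was the longest of the 9 genes, longer than 99.4% of protein-coding genes, and its 1 peak stood at the start side.

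In Grik3 and Grik4 the peaks lay deep inside the gene. The Grik3 peak, on chromosome 4 at 125590505 to 125590905, was 100 kb downstream of the annotated start, 44.8% of the way to the far end of the span. The Grik4 peaks lay on chromosome 9 at 42819245 to 42819645 and at 42652725 to 42653125. They were 125 kb and 291 kb downstream of the start, 29.3% and 68.4% of the way to the far end, and 167 kb apart. Grik4 was the only one of the 9 genes with more than 1 peak. More than 1 peak was found at 1.01% of all protein-coding genes and at 9.52% of those over 300 kb, the length class of Grik4. No other protein-coding gene lay within 144 kb of these 3 peaks.

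The Grik5 peak was not inside the gene. It lay on chromosome 7 at 25008665 to 25009065, 984 bp beyond the lower end of the span, which is the downstream end of this minus-strand gene, and 63.5 kb from its annotated start. Its midpoint lay outside the Grik5 span, and positions alone cannot assign such a peak to a gene. Grik5 is the shortest of the 9 genes, with 65.8 kb.

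Grik1 was the 1 kainate gene without a peak. Its span of 395 kb on chromosome 16 ran from 87895901 to 88290863, and the closest peak lay 780 kb above the upper end, at 89071045 to 89071445. Of all protein-coding genes, 24.8% were farther from a peak. There was no borderline member around the 10 kb reach: the farthest peak counted outside a span was the Grik5 peak at 984 bp, and the nearest one not counted was the Gria1 peak at 104 kb.

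**Figure D2:**
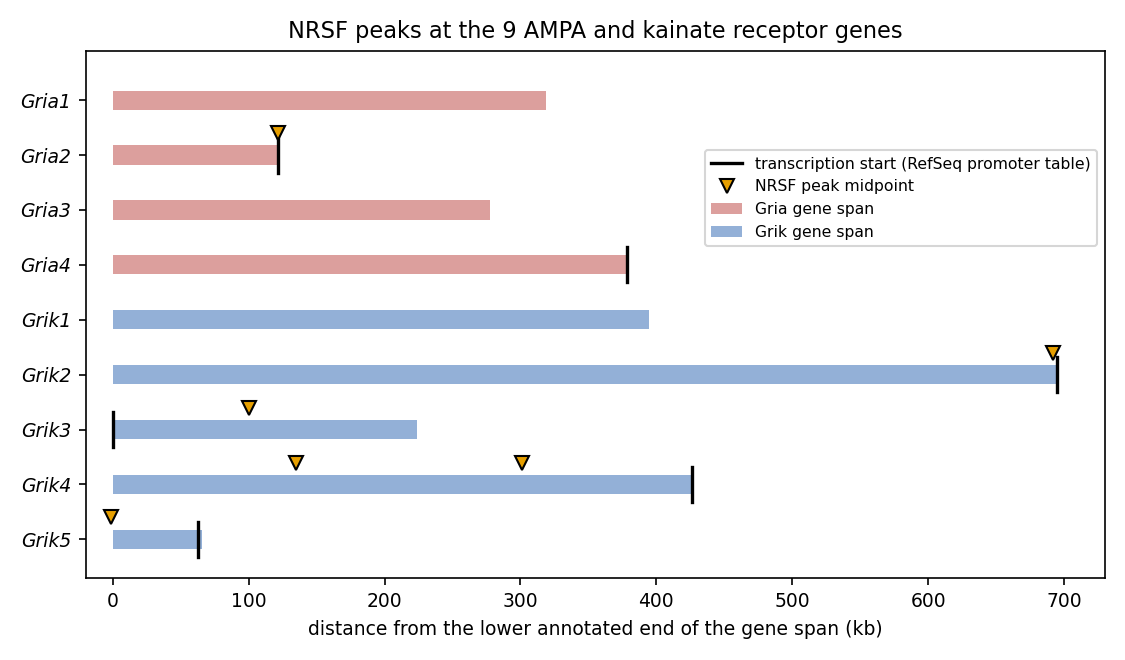
The 9 gene spans drawn to scale from the lower annotated end (x axis, kb), with peak midpoints as triangles and annotated starts as black ticks for the 6 genes that have one. The Gria2 and Grik2 peaks sit at the start, those of Grik3 and Grik4 inside the gene, and that of Grik5 at the far end.

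Set side by side, the families had a peak at 1 of 4 Gria genes (exact 95% interval of the share 0.631 to 80.6%) and at 4 of 5 Grik genes (28.4 to 99.5%). The intervals treat the genes as independent draws, although each family was counted in full, so they reflect only the small number of genes. Their overlap over most of the range is not a test of a difference. The difference was not tested, since the genes were proposed with results of these data known. Over the summed spans with 10 kb on each side, Gria genes had 1 peak in 1178 kb, or 0.0849 per 100 kb, and Grik genes had 5 in 1908 kb, or 0.262 per 100 kb. All protein-coding genes had 0.132 per 100 kb, but this density was lower in each longer class of genes. It was 0.202 under 10 kb and 0.141 at 30 to 100 kb. In the longer classes it was 0.103 at 100 to 300 kb and 0.0809 over 300 kb. By gene, the value was 0.70 in Gria2, and in the kainate family 1.16 in Grik5, 0.448 in Grik4, 0.41 in Grik3 and 0.14 in Grik2. The highest of these belong to the shortest genes, because 1 peak in a short span gives a high value.

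Gene length bears on these counts, since longer genes more often have a peak by this rule. The share was higher in each longer class, being 4.64% of genes under 10 kb, 5.95% of those of 10 to 30 kb, 8.84% at 30 to 100 kb, 14.6% at 100 to 300 kb and 29.8% over 300 kb. All 9 receptor genes were longer than the median protein-coding gene of 17.2 kb. The Gria spans were 123 to 378 kb long (median 298 kb) and the Grik spans 65.8 to 696 kb (median 395 kb). Adding up the share of each gene's own length class gave 0.888 genes with a peak for the 4 Gria genes, against the 1 counted. For the 5 Grik genes it gave 1.13, against the 4 counted. For all 9 genes it gave 2.02, against 5. Counted in peaks, the density of the same classes gave 1.05 for Gria and 1.65 for Grik, where 1 and 5 were found.

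Length did not order the 9 genes by presence of a peak. The 3 shortest, Grik5, Gria2 and Grik3 with 65.8, 123 and 224 kb, each had a peak, and so did the 2 longest, Grik4 and Grik2 with 427 and 696 kb. The 4 genes without a peak, Gria3, Gria1, Gria4 and Grik1, lay between them with 278 to 395 kb. In the class over 300 kb, 0 of 2 Gria genes and 2 of 3 Grik genes had a peak.

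**Figure D3:**
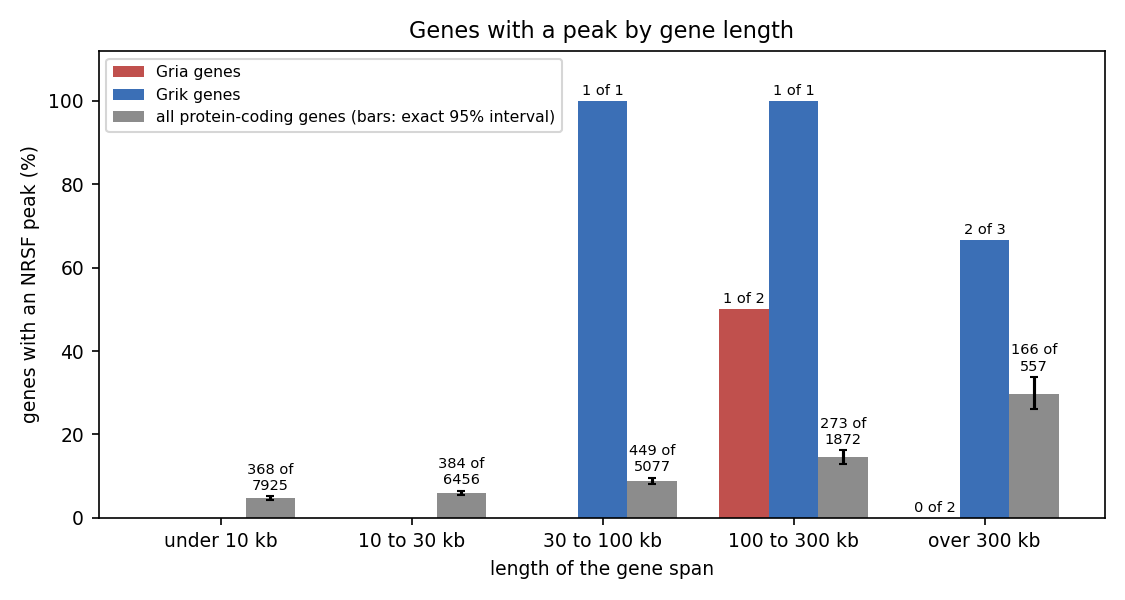
Percent of genes with a peak (y axis) in 5 classes of gene length (x axis) for Gria genes, Grik genes and all protein-coding genes, with counts above the bars and exact 95% intervals on the grey ones. The grey bars climb to 29.8% over 300 kb, where 0 of 2 Gria and 2 of 3 Grik genes had a peak.

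The kainate count changed with the part of the gene that was counted. Inside the span alone, 1 Gria gene and 3 Grik genes had a peak, compared with 4.44% of all protein-coding genes. Within 10 kb of either gene end, 1 Gria gene and 2 Grik genes did (5.63% of all). Within 10 kb of an annotated start, the 2 Gria genes with a start in the table included 1 with a peak, and the 4 such Grik genes also 1, compared with 3.9% of all genes with a start. The genes with such a peak were Gria2 and Grik2, while the peaks of Grik3, Grik4 and Grik5 lay 63.5 to 291 kb from the start.

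AMPA and kainate receptors work with auxiliary subunits and partners, and 17 of 36 such genes had a peak (47.2%, exact 95% interval 30.4 to 64.5%). The lengths of these 36 genes would give 3.82 by the class shares. The list was divided into groups by protein family after the values were seen, and the groups were not tested against each other. Of the 6 genes for transmembrane AMPA receptor regulatory proteins, which are auxiliary subunits of these receptors, 4 had a peak, where the class shares give 0.559. Cacng2 (stargazin) had 4 peaks, the closest 335 bp inside a gene end. The Cacng3, Cacng7 and Cacng5 peaks lay 749, 3802 and 5270 bp outside an end. All 3 neuronal pentraxin genes, whose products cluster AMPA receptors from outside the cell, had a peak, where the class shares give 0.165. It lay 1506 bp inside an end of Nptx1, 3057 bp outside an end of Nptx2, and 5364 bp inside an end of Nptxr, which had 2 peaks.

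Grip2 encodes a PDZ scaffold that binds GluA2 and GluA3, and its closest peak was 4164 bp inside an end. Gripap1, which encodes a partner of these scaffolds, had a peak 5249 bp inside an end. Of the 4 Dlg genes, which encode postsynaptic scaffolds such as PSD-95, 1 had a peak, where the class shares give 0.592. Of the 4 Shisa genes 1 had a peak, where they give 0.55, and of the 2 cornichon genes, Cnih2 and Cnih3, 0 did, where they give 0.192. With so few genes these last 3 counts lie near the background. Olfm1, which encodes a secreted AMPA receptor interactor, had a peak 2077 bp inside an end.

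A few further partners were chosen after their values were seen, for their link to the receptors described above. Neto1 encodes an auxiliary subunit of kainate receptors, and its peak lay inside the gene on chromosome 18, 35.5 kb from an end. Neto2, its close relative, had its closest peak 416 kb away. Adarb1, the enzyme that edits the Gria2 transcript at the site that sets calcium permeability, had no peak by the rule, with the closest 56.3 kb outside the span.

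**Figure D4:**
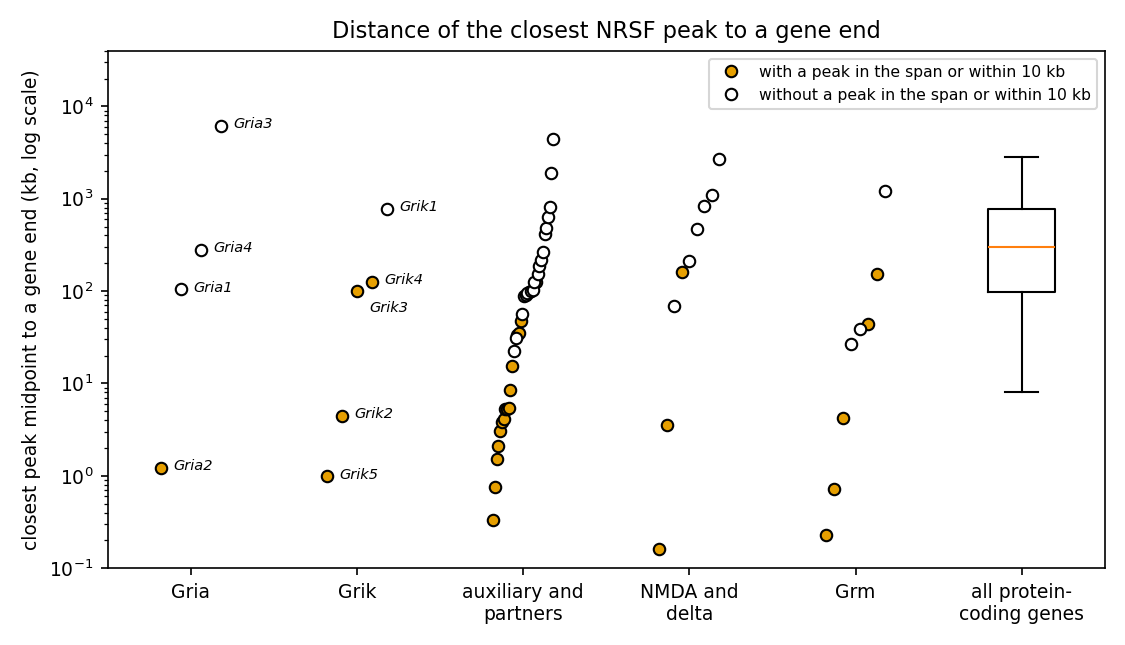
Distance from a gene end to the closest peak midpoint (y axis, kb, log scale) for each gene of the 5 lists, filled where the gene has a peak by the rule, with all protein-coding genes as a box (median and quartiles, whiskers at the 5th and 95th percentiles). Gria2, Grik5 and Grik2 lie at 1.22, 0.984 and 4.48 kb, the Grik5 value being to its downstream end. The other Gria and Grik genes lie at 100 to 6195 kb. For the partner genes Dlg2 and Grip1 the plotted peak, at 15.6 and 126 kb, is not the counted one. Their counted peaks lie 792 and 252 kb inside an end. The median was 104 kb for the 9 Gria and Grik genes and 299 kb over all genes.

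In the other glutamate receptor families the share with a peak lay on either side of that of the 9 genes, which was 55.6% (exact 95% interval 21.2 to 86.3%). Of the 9 NMDA and delta receptor genes 3 had a peak (33.3%, 7.49 to 70.1%). These were Grin1, the obligatory NMDA subunit, with a peak 162 bp inside an end, Grid1 with 2 peaks, and Grin2a, whose peak was 159 kb from an end. Of the 8 metabotropic receptor genes 5 had a peak (62.5%, 24.5 to 91.5%). The Grm2 peak, for example, was 226 bp outside an end, and that of Grm5 was 4.19 kb inside. The class shares gave 1.59 and 1.55 genes for these lists. The intervals of all these families overlap, but this is not a comparison, since each family was counted in full. None was tested against another.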

How the data were processed

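NRSF binding was measured by ChIP-seq in mouse RAW264.7 cells. The values the authors deposited are peak coordinates alone. Per the submitters' processing notes, the tools were the aligner Bowtie 0.12.8 and the peak caller MACS 1.4.2, with GRCm38 (mm10) among the builds. Neither the peak threshold nor the way replicates were merged was given in the sources used here. A list with no heights keeps weak and strong peaks alike, and a gene without a peak may hold binding under the threshold. The depth is unknown. The dog, horse and human lists were not used, since gene positions were at hand for mouse only.

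Gene spans and promoter windows came from RefSeq tables of GRCm38.p6. Mitochondrial genes were left out. A peak near several genes counted for each. Lengths were classed at 10, 30, 100 and 300 kb. Shares carry exact (Clopper-Pearson) 95% intervals. Of 32851 windows, 32841 of unambiguous letters were searched. All 9 genes are named, and of the other lists up to 10 genes with a peak, those closest to a gene end, with some results not reported here and with exceptions marked as chosen after their values were seen. The genes and lists were chosen with earlier results of these data known, so no p-value is given. Counting and search were tested on simulated data. Python 3.11.15 with numpy 2.4.6, pandas 2.3.3, scipy 1.17.1 and matplotlib 3.10.9 was used.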

Additional observations from a re-analysis of the deposited data

How the results depend on the processing

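Of 39 alternative values, 32 stayed within 1.5 times the reported one. With reaches of 0, 1, 5, 20 and 50 kb, or any overlap of a peak with the extended span, the Gria count stayed at 1 gene and the Grik count at 4, except for 3 without any reach, where Grik5 drops out. Over all protein-coding genes the share was 4.44% with no reach and 16.2% at 50 kb. Within 10 kb of an annotated start, the Grik family had 1 gene and 1 peak, and all genes 3.9%; fewer genes have a start in the table. Taken as the median of the genes' own values, peaks per 100 kb were 0 for Gria, since 3 of its 4 genes have none, and 0.41 for Grik. No paired analysis was possible because the list holds no value per replicate, and for the same reason no replicate could be left out. The number of genes, 4 and 5, limits the family comparison, and the unknown depth limits what the absence of a peak can show.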
